A study of Mus musculus with 10 samples.

Results

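The p53 target genes are genes whose transcription the tumour suppressor p53 is known to switch on, described here in mouse brain tumours and neurospheres made from cells that carry p53 and Rb alleles flanked by loxP sites. The list holds 38 genes, and a gene was read from the array's transcript cluster (the set of probes that covers one gene) annotated with that gene symbol alone. Of the 38 genes, 33 were measured, among 14807 genes named in this way on 23238 transcript clusters. Bax, Gdf15 and Psrc1 were named by no transcript cluster, and Ei24 and Rrm2b only by clusters that name several genes. Trp53, the gene of p53 itself, was likewise not on a transcript cluster of its own and was not analysed here.

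RNA was hybridised to 10 Affymetrix mouse exon arrays, and every sample had the genotype p53/Rb Flox-Hom on a mixed background of C57, FVB and mainly 129 Ola. The PNET group (primitive neuroectodermal tumour, n = 3) arose after adenovirus with Cre recombinase (AdCre), which deletes DNA between loxP sites, was delivered into the brain ventricles. The oligo-astrocytoma group (a mixed glioma, n = 4) held 1 tumour of that origin (number 44) and 3 tumours from grafted spheres that had received AdCre in vitro (numbers 4, 5 and 6). The cultures were neurospheres at passage 3, 2 after AdCre and 1 after AdGFP, a virus with green fluorescent protein and no Cre. The AdGFP sphere is thus the only sample whose label names no Cre, and no value here measures how far the floxed alleles were deleted in the others. The labels name no sorting of infected cells, give no ages and leave it unsaid if replicates are separate animals or cultures, and the p-values therefore cover no more than the spread among the arrays. Tumour tissue was dissected and held host cells as well. Values are log2 expression, differences are log2 differences ± SE, and a gene passed where its adjusted p was under 0.05 in the limma fit over all 10 arrays and all 23238 transcript clusters.

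In normal cells p53 is kept scarce by Mdm2, a ubiquitin ligase that is itself a p53 target, and DNA damage or oncogene activity releases it from this control. It then binds response elements near its targets, which arrest the cell cycle, trigger cell death, repair DNA and adjust metabolism. Neural stem cells of the adult brain express p53, which limits their self-renewal, and loss of p53 is a common event in glioma.

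The p53 response element is built from decamers of 10 letters, 2 of which can lie side by side. Promoter windows of 300 bases (250 before to 50 after an annotated start, RefSeq, GRCm38.p6) were given for 30 of the 38 genes. A perfect match to the p53 decamer, searched on both strands, lay in a window of 10 of these 30 genes (33.3%), against 2582 of 27025 genes with a window (9.55%). A tandem site, 2 decamers side by side with at most 2 letters off, lay in windows of 4 genes (Ccng1, Rps27l, Cd80 and Gtse1), against 106 of all genes (0.392%). A match is a description of letters and not a measured binding site, and windows without a match bear on nothing outside them. By windows, 11 of the members' 43 (25.6%) and 8.36% of all 32851 held the decamer. Besides its tandem site, Rps27l had a perfect decamer starting at position -210, which is not shown. Below, 1 site is shown for each of Mdm2, Ccng1, Rps27l and Sesn1, genes that did not pass in the same comparisons. Each is given 5′ to 3′ on the strand of its gene, with the matched letters in capitals.
Mdm2, chr10:117710910-117710969, minus strand, decamer starting at position -186 from the start: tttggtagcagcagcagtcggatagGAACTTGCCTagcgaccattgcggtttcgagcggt
Ccng1, chr11:40755437-40755506, minus strand, tandem site with 1 letter off starting at position -195: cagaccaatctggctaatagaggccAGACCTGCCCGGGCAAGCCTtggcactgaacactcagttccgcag
Rps27l, chr9:66946271-66946340, plus strand, tandem site with 1 letter off starting at position -117: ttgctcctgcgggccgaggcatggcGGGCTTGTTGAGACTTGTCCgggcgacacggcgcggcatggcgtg
Sesn1, chr10:41887241-41887300, plus strand, decamer starting at position -173: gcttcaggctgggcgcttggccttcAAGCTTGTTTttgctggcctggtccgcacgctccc

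Array medians ranged from 5.87 to 6.06, but upper quartiles were 7.22 to 7.49 in tumours and 7.90 to 8.0 in spheres. Arrays of one group correlated at 0.951 to 0.974 across transcript clusters. Rb1, the targeted gene that could be read, was 8.48 with AdGFP, lower in both AdCre spheres (6.65 and 6.34) and ranged from 6.36 to 7.64 in tumours. Its AdCre minus AdGFP difference of -1.99 ± 0.35 did not pass (adjusted p = 0.2471), and the Rb1 probes may lie outside the deleted part. Neural stem markers averaged 10.01 to 10.2 in the AdCre spheres and 10.1 in the AdGFP sphere. Oligodendrocyte precursor markers averaged 9.51 to 9.85 in oligo-astrocytomas, and photoreceptor and pineal markers 9.93 to 10.74 in PNET.

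The first comparison, AdCre spheres (n = 2) against the AdGFP sphere (n = 1), asks which targets were lower in culture after Cre. Dglucy, which encodes the mitochondrial D-glutamate cyclase, fell 7.47-fold and was the only target to pass. Most other targets read lower too, led by Eda2r, Trp53inp1, Phlda3, Ak1, Ccng1 and Aen. Mdm2, Abhd4 and the DNA repair genes were among the many targets that stayed within 2-fold of the AdGFP sphere. Of these, Mdm2 (-0.49), Polk (-0.81) and Ercc5 (-0.54) still lay below the 5th percentile of all named genes (-0.39). Of 33 measured targets 1 passed as lower, against 0.0129% of all transcript clusters, and 0 as higher, against 0.0043% (none of the targets was higher at an unadjusted p under 0.05 in the limma fit either). Besides Dglucy only 3 transcript clusters passed in this comparison, 2 lower and 1 higher, and none of them is annotated with a gene.

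Dglucy read 8.86 with AdGFP and 5.84 and 6.08 with AdCre. It was 4.98 in oligo-astrocytoma 44, 5.02, 5.52 and 5.11 in the grafted oligo-astrocytomas, and 6.58, 6.28 and 6.61 in PNET. The AdGFP value thus stood above all 9 other arrays, and the AdCre spheres stood between both tumour types. The AdCre minus AdGFP difference was -2.90 ± 0.29 (95% interval -3.56 to -2.24, adjusted p = 0.04144). The call was lost without AdCre sphere 1 (-2.78, adjusted p = 0.1233) and without AdCre sphere 2 (-3.02, adjusted p = 0.1042), and over the alternatives the adjusted p reached 0.9513.

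Counted by size alone, 9 targets were at least 2-fold lower in the AdCre spheres, against 2.49% of all transcript clusters and 0.574% of named genes. None was at least 2-fold higher, against 2.64% of all transcript clusters. At an unadjusted p under 0.05, 10 targets were lower, against 2.39%. Both of these rules, and the choice of the 9 genes for closer description, were added after the values had been seen. The differences of 28 of the 33 targets were negative, against 35.2% of named genes. The median of the targets was -0.65, where the median over all named genes was 0.09. Lineage markers also differed between the spheres, though none passed. Of 6 neural stem markers 3 read lower with AdCre, down to -1.06, and 3 read higher, up to 0.55. Of 6 oligodendrocyte precursor markers 3 were at least 2-fold higher with AdCre and the other 3 read lower, down to -0.67. The list means were 7.93 to 9.05 against 8.05. Among the higher ones, Sox10 and Pdgfra differed by 1.47 ± 0.43 and 1.28 ± 0.42 (adjusted p = 0.6221 and 0.7314). Astrocyte markers averaged 8.17 to 9.94 against 8.32, and Gfap differed by 2.14 ± 1.01 (adjusted p = 0.9997). The part of these lineages in the differences of the targets was not tested. Both AdCre arrays read below the AdGFP array for 26 targets, against 21.5% of named genes, and above it for 4 (Plk3, Ddb2, Xpc and Sesn1), against 47.4%.

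**Figure D1:**
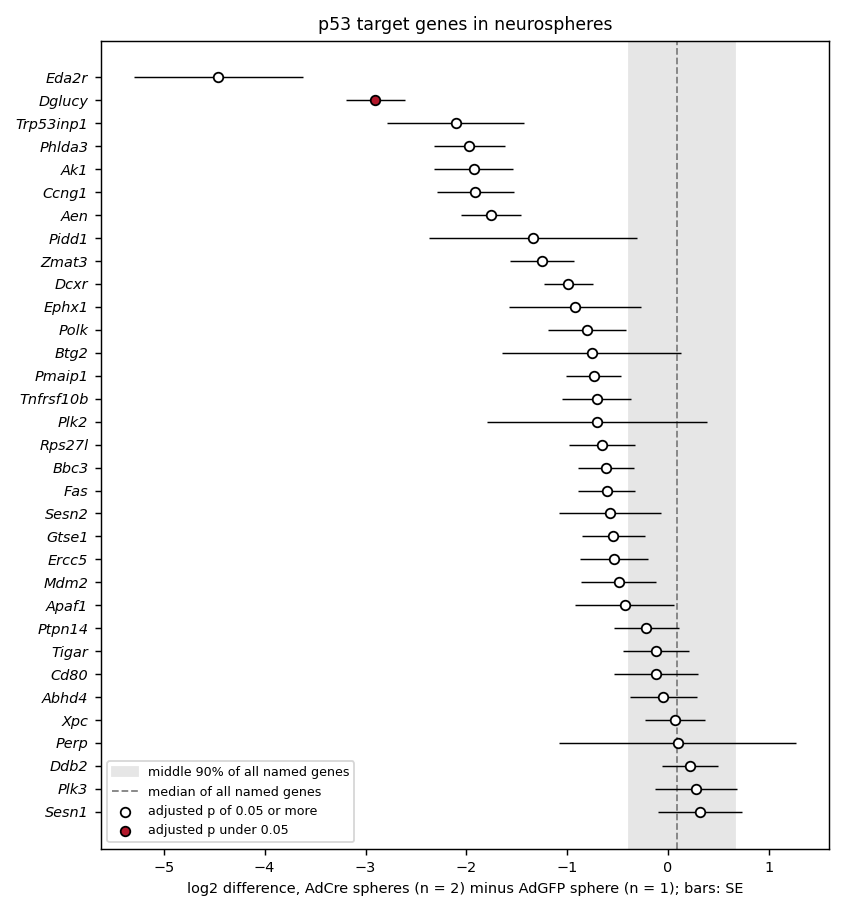
The horizontal axis gives the log2 difference of AdCre spheres (n = 2) minus the AdGFP sphere (n = 1) for each of the 33 measured targets, with SE bars, and the filled point is Dglucy, which passed. The dashed line marks the median of all named genes at 0.09 and the grey band holds the middle 90% of them, from -0.39 to 0.66, to the right of which no target lies.

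Eda2r, a receptor of the tumour necrosis factor family that binds ectodysplasin A2, had the most negative difference of all 14807 named genes. It read 9.57 with AdGFP against 4.90 and 5.34 with AdCre, 4.15 in oligo-astrocytoma 44, 4.54, 4.57 and 5.61 in the grafts, and 5.16, 7.42 and 5.69 in PNET. PNET 2 was the highest of the samples that had received AdCre, and AdGFP stood above all of them. The AdCre minus AdGFP difference of -4.46 ± 0.84, or 21.98-fold, did not pass (adjusted p = 0.2471, 95% interval -6.34 to -2.58).

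Among genes that act on p53 or beside it, all 6 measured members read lower after AdCre, where 35.2% of named genes did. Their median was -1.58. Ccng1 encodes cyclin G1, which recruits a phosphatase to Mdm2. It read 11.91 with AdGFP and 10.15 and 9.85 with AdCre. It was 9.34, 10.12 and 10.16 in PNET, 9.03 in oligo-astrocytoma 44 and 9.08, 9.03 and 8.55 in the grafts, so that AdGFP stood above all others and every oligo-astrocytoma below every PNET. Zmat3, a zinc finger protein that binds RNA, read 9.05 with AdGFP, 8.01 and 7.60 with AdCre, 6.91 in oligo-astrocytoma 44, 7.11, 7.35 and 7.53 in the grafts, and 6.21, 5.92 and 6.26 in PNET. The groups of Zmat3 did not overlap at all. Their AdCre minus AdGFP differences were -1.91 ± 0.39 for Ccng1 and -1.25 ± 0.32 for Zmat3, and neither passed (adjusted p = 0.3164 and 0.5265).

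Trp53inp1, a nuclear protein that enhances p53 activity, read 10.30 with AdGFP and 8.48 and 7.91 with AdCre (difference -2.11 ± 0.68). Phlda3, which blocks the kinase Akt at the membrane, read 9.66 against 7.60 and 7.78 (difference -1.97 ± 0.35). Rps27l, a ribosomal protein paralog, read 9.57 against 8.75 and 9.08. For Mdm2, whose promoter holds the decamer shown above, the readings were 8.28 against 7.71 and 7.87. The Mdm2 difference was -0.49 ± 0.37, with a 95% interval from -1.33 to 0.35, so a fall of 2-fold was within the error of the measurement.

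Of the 6 measured cell death genes none passed, and the median difference was -0.67. Aen, a nuclease of apoptotic nuclei, read 8.42 with AdGFP and 6.66 and 6.67 with AdCre, a difference of -1.76 ± 0.29 (adjusted p = 0.2471). Pidd1, a scaffold that activates caspase-2, differed by -1.34 ± 1.03, with an interval across 0. The death inducers of the Bcl-2 family, Pmaip1 (Noxa) and Bbc3 (Puma), differed by -0.74 ± 0.27 and -0.61 ± 0.28. Apaf1, the core of the apoptosome, and Perp, a membrane protein of desmosomes, differed by -0.43 ± 0.49 and 0.10 ± 1.18.

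In the other groups the targets that differed by 2-fold or more were Eda2r and Dglucy, given above, and Ak1. Ak1, a cytosolic adenylate kinase, read 10.95 with AdGFP and 9.18 and 8.86 with AdCre (difference -1.93 ± 0.39). Of the targets at least 2-fold lower, Zmat3 differed least, by -1.25 ± 0.32. Dcxr, a carbonyl and xylulose reductase, lay just short of the 2-fold limit, at -0.99 ± 0.24. The 4 repair genes ranged from -0.81 for Polk, a translesion polymerase, to 0.22 for Ddb2, which recognises ultraviolet damage. Growth and cell cycle genes ranged from -0.76 for the antiproliferative Btg2 to 0.28 for the kinase Plk3. Sesn1 differed by 0.32 ± 0.41 and Sesn2 by -0.58 ± 0.51, and both encode sestrins, which restrain the growth kinase mTORC1. The death receptors Fas and Tnfrsf10b (the TRAIL receptor) differed by -0.61 ± 0.28 and -0.71 ± 0.34.

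**Figure D2:**
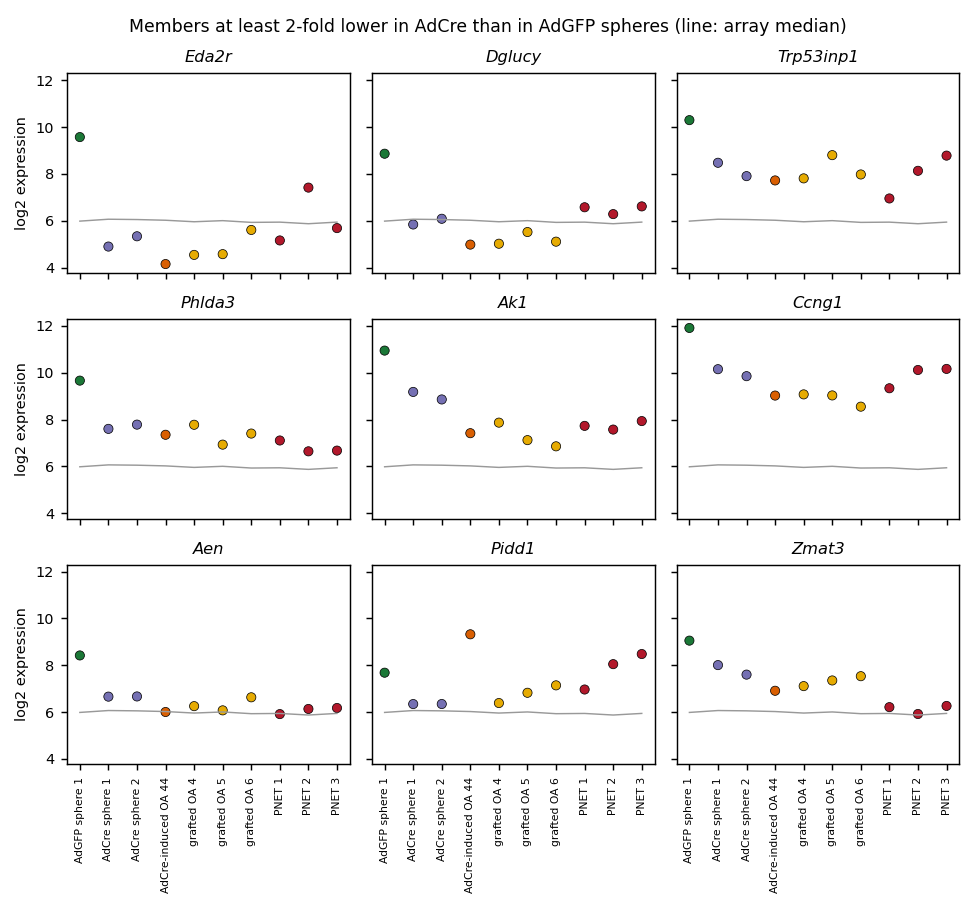
The vertical axes give log2 expression on each of the 10 arrays for the 9 targets that were at least 2-fold lower in AdCre spheres, with 1 point per array and a grey line at the array medians. For 8 of the 9 the AdGFP sphere is the highest sample, and Pidd1, at 9.32 in oligo-astrocytoma 44, is the exception. The 9 were chosen because AdGFP stood above the AdCre spheres, so its top place is in part set by that choice.

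The next comparisons set each tumour type against the AdCre spheres, which had received the same virus, and ask whether the targets stayed at their sphere level. In oligo-astrocytomas (n = 4) 13 targets fell, against 22.8% of all transcript clusters, and 0 rose, against 10.1%. Among named genes alone 28.3% fell and 3.19% rose. None of the targets was higher at an unadjusted p under 0.05 in limma. The largest falls were in Ephx1 (12.6-fold), Rps27l (5.33-fold) and Abhd4 (5.24-fold). In PNET (n = 3) 12 targets fell, against 25.9%, and 2 rose, against 11%. Among named genes alone 32.2% fell and 5.43% rose, so both counts in PNET were near that background. The largest falls there were in Abhd4 (14.03-fold), Ephx1 (11.8-fold) and Rps27l (5.88-fold). The member median was -0.58 in oligo-astrocytoma and -0.47 in PNET. All named genes had medians of -0.35 and -0.36, which became -0.21 and -0.18 after quantile normalization between arrays. Relative to all named genes the targets stood at -0.22 and -0.11, or after that normalization at -0.18 and 0.01, so for PNET the side of 0 depends on the scaling.

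Cells of the tumour bed moved with these comparisons. Of 9 microglia and macrophage markers 8 were higher in oligo-astrocytoma and 3 in PNET than in AdCre spheres, and the list averaged 6.48 to 8.27 in oligo-astrocytomas, 5.90 to 6.75 in PNET and 4.51 to 4.69 in AdCre spheres. All 6 endothelial markers were higher in oligo-astrocytoma and 3 in PNET, at list means of 6.08 to 6.79 and 5.90 to 6.28 against 4.62 to 4.65. Of 6 pericyte and fibroblast markers 3 were higher in each. Neural stem markers fell, 4 of 6 in oligo-astrocytoma and 5 of 6 in PNET, to list means of 8.30 to 8.80 and 7.04 to 7.34. The part of these cells in the results for the targets was not tested, and in bulk samples fewer cells of a type and less RNA per cell cannot be told apart.

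The metabolic targets held 7 of the 13 falls in oligo-astrocytoma and 6 of the 12 in PNET. Ephx1, the microsomal epoxide hydrolase, read 10.14 and 11.11 in AdCre spheres, 6.88 in oligo-astrocytoma 44, 7.46, 6.62 and 6.90 in the grafts, 8.02, 6.30 and 6.89 in PNET, and 11.54 with AdGFP. No tumour reached the level of any sphere. Ephx1 fell by 3.66 ± 0.46 in oligo-astrocytoma (adjusted p = 0.0008671), and in PNET it fell by 3.56 ± 0.49 (adjusted p = 0.0007598).

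Abhd4, a hydrolase of N-acyl phospholipids, read 10.67 and 10.57 in AdCre spheres and 10.66 with AdGFP. It was 8.65 in oligo-astrocytoma 44, 8.18, 8.22 and 7.88 in the grafts and 7.08, 6.76 and 6.58 in PNET, so that spheres, gliomas and PNET formed 3 bands without overlap. The AdCre minus AdGFP difference of Abhd4 was -0.05 ± 0.33 (95% interval -0.80 to 0.71), whereas it fell from AdCre spheres to tumours, by 2.39 ± 0.24 in oligo-astrocytoma (adjusted p = 0.0004281) and by 3.81 ± 0.25 in PNET (adjusted p = 2.917e-05).

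Ak1 read 7.42 in oligo-astrocytoma 44, 7.87, 7.12 and 6.86 in the grafts and 7.73, 7.57 and 7.94 in PNET, below both AdCre spheres throughout. Its differences were -1.70 ± 0.28 (adjusted p = 0.002247) and -1.27 ± 0.29 (adjusted p = 0.008285), the latter lost without AdCre sphere 1 (adjusted p = 0.06847). The sestrins are stress sensors that hold back growth signalling. Sesn2 read 8.26 and 7.64 in AdCre spheres, 8.53 with AdGFP, 6.75 in oligo-astrocytoma 44, 5.67, 6.06 and 6.03 in the grafts and 6.65, 5.96 and 6.96 in PNET. Sesn1 read 8.33 and 8.28 in AdCre spheres, 7.99 with AdGFP, 6.45 in oligo-astrocytoma 44, 6.62, 7.20 and 7.26 in the grafts and 6.96, 7.68 and 7.55 in PNET. Every tumour was below every sphere for both sestrins. In oligo-astrocytoma Sesn2 differed by -1.82 ± 0.36 (adjusted p = 0.0052) and Sesn1 by -1.42 ± 0.29 (adjusted p = 0.00628). In PNET the values were -1.43 ± 0.38 and -0.91 ± 0.31 (adjusted p = 0.016 and 0.04457). Without AdCre sphere 1 the Sesn2 calls were lost in both (adjusted p = 0.05596 and 0.1267), and the Sesn1 call in PNET was lost under 4 of the 5 left-out replicates, up to an adjusted p of 0.163.

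Of the genes around p53, Rps27l read 6.68 in oligo-astrocytoma 44, 6.14, 6.55 and 6.65 in the grafts and 6.36, 6.07 and 6.65 in PNET, more than 2 below the AdCre spheres on every array. It fell by 2.42 ± 0.23 in oligo-astrocytoma (adjusted p = 0.0003818) and by 2.55 ± 0.24 in PNET (adjusted p = 0.0001418). Ccng1 fell in oligo-astrocytoma, by 1.08 ± 0.27 (adjusted p = 0.01506, or 0.1132 without AdCre sphere 1), and differed by -0.13 in PNET without passing. Zmat3 fell in PNET, by 1.67 ± 0.24 (adjusted p = 0.0008963), and Phlda3 by 0.89 ± 0.26 (adjusted p = 0.02652, or 0.07308 to 0.1298 without PNET 2, PNET 3 or either AdCre sphere). Mdm2 read 7.81 in oligo-astrocytoma 44, 8.09, 8.04 and 8.11 in the grafts and 7.24, 7.93 and 8.26 in PNET, which overlapped the AdCre spheres. Its differences of 0.22 ± 0.26 and 0.02 ± 0.28 had 95% intervals of -0.37 to 0.82 and -0.61 to 0.65.

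Among cell death genes Bbc3 fell in both tumour types, by 1.08 ± 0.20 in oligo-astrocytoma and by 1.03 ± 0.21 in PNET (adjusted p = 0.003726 and 0.0047). Pmaip1 fell by 1.0 ± 0.19 in oligo-astrocytoma (adjusted p = 0.004713). No death receptor passed as lower. The rises in PNET were Ddb2, by 0.98 ± 0.21 (adjusted p = 0.006076), and Cd80, a ligand for T cell co-stimulation, by 0.92 ± 0.31 (adjusted p = 0.04272). The Cd80 call was lost without any 1 of the 3 PNET (adjusted p of 0.05795 to 0.1189) and without AdCre sphere 1 (0.3197). Xpc, the damage sensor of nucleotide excision repair, and Ptpn14, a phosphatase that restrains the transcriptional co-activator Yap, made up the PNET falls with Dcxr. Gtse1, a cell cycle protein that shuttles p53 out of the nucleus, Ddb2, Dglucy and Dcxr completed those of oligo-astrocytoma, at -0.59 to -0.81.

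The number of falls rested in part on single sphere arrays. Without AdCre sphere 1 there were 7 falls in oligo-astrocytoma and 5 in PNET, and without AdCre sphere 2 there were 7 in PNET. Rps27l, Bbc3, Ephx1 and Abhd4 fell under every alternative in both comparisons, Pmaip1 and Ak1 in oligo-astrocytoma and Zmat3 in PNET. After quantile normalization 8 targets fell in oligo-astrocytoma and 5 in PNET. The calls of Ccng1 and Sesn1 in oligo-astrocytoma were then lost (adjusted p = 0.1449 and 0.07242), and so were those of Gtse1, Ddb2 and Dcxr. In PNET those of Sesn2, Ak1, Sesn1, Phlda3 and Cd80 were lost (adjusted p of 0.0872 to 0.5914), as were those of Ptpn14, Xpc and Dcxr. Dglucy, which differed by 0.53 in PNET without passing, then passed as higher, and did so too after centring on array medians. Over all alternatives, the oligo-astrocytoma calls of Ddb2 and Dcxr were lost under 7 and 6 of 16. The PNET calls of Ptpn14 and Xpc were each lost under 7 of 15, and that of Dcxr under 5. The 2 comparisons share the AdCre arrays, and these arrays also stand on the first side of the comparison of spheres.

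**Figure D3:**
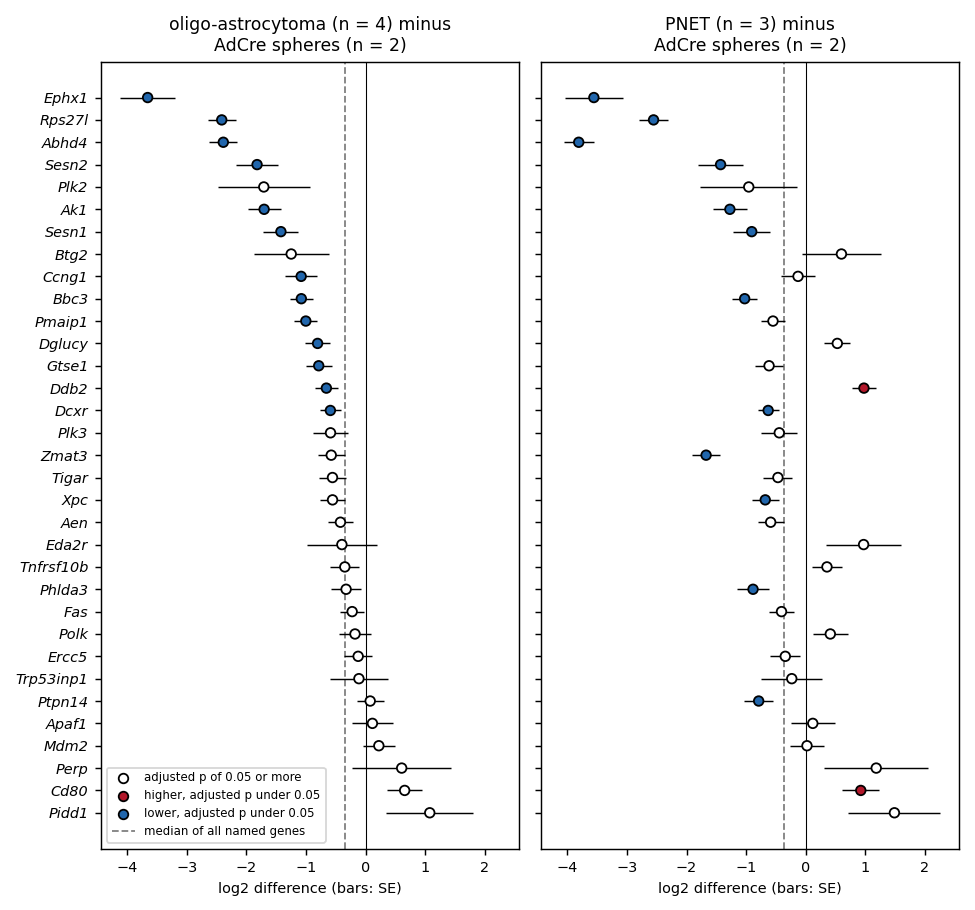
The horizontal axes give the log2 difference of oligo-astrocytomas (n = 4, left) and PNET (n = 3, right) minus the AdCre spheres (n = 2), with SE bars and targets in the same order in both panels. Blue points passed as lower and red as higher, and the dashed lines mark the medians of all named genes at -0.35 and -0.36.

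Set against the AdGFP sphere, the one sample labelled as not exposed to Cre, the tumours were lower for more targets. In oligo-astrocytoma 16 targets fell, against 8.75% of all transcript clusters, and 0 rose, against 3.52%, with 11.2% and 1.28% among named genes (none at an unadjusted p under 0.05 in limma). In PNET 18 fell, against 14.5%, and 1 rose, against 5.44%, with 18.4% and 3.41% among named genes. The medians were -1.58 and -1.16, beside -0.25 and -0.26 over all named genes. Both comparisons rest on the same single AdGFP array, whose spread was taken from the other groups. They also set tumour tissue against cultured cells, so exposure to Cre and tissue against culture cannot be told apart in them.

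Oligo-astrocytoma fell furthest in Eda2r, at -4.86 ± 0.76 (adjusted p = 0.00722), and in Ephx1, at -4.58 ± 0.60 (adjusted p = 0.004157). Dglucy stood at -3.71 ± 0.27 (adjusted p = 0.0007415) and Ak1 at -3.63 ± 0.36 (adjusted p = 0.001554). Rps27l and Ccng1 followed at -3.07 ± 0.30 and -2.99 ± 0.35, and the other 10 falls ranged from -1.33 for Gtse1 to -2.43 for Abhd4. PNET fell furthest in Ephx1, at -4.48 ± 0.62 (adjusted p = 0.001883), Abhd4, at -3.86 ± 0.32 (adjusted p = 0.0001972), and Eda2r, at -3.49 ± 0.79 (adjusted p = 0.01531, or 0.05172 after quantile normalization). Rps27l, Ak1 and Zmat3 followed at -3.21 ± 0.31, -3.20 ± 0.37 and -2.92 ± 0.30, and the other 12 falls ranged from -1.01 for Ptpn14 to -2.86 for Phlda3. Aen, at 5.91 to 6.63 in the 7 tumours against 8.42 with AdGFP, was among the falls of each, and so were Phlda3, Trp53inp1, Dcxr and Bbc3. The Trp53inp1 calls had adjusted p of 0.04848 and 0.0325 and were lost without PNET 2 (0.05794) or without oligo-astrocytomas 44, 4 or 6 (0.07562 to 0.08563). Ptpn14 in PNET (adjusted p = 0.04552) was lost without any 1 of the PNET, and Fas and Gtse1 without PNET 2 (adjusted p = 0.05096 and 0.05489).

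The single rise was Ddb2 in PNET, by 1.19 ± 0.26 (adjusted p = 0.01399). By simple order, 27 targets read below AdGFP on all 4 oligo-astrocytoma arrays, against 49.7% of named genes, and 26 on all 3 PNET arrays, against 52.8%. Cd80 was above AdGFP on every oligo-astrocytoma array, where 14.7% of named genes were. Perp, Cd80 and Ddb2 were above it on every PNET array, where 21.3% of named genes were.

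The direct comparison of PNET with oligo-astrocytoma asks where both tumour types differ in their targets. Here 3 targets were higher in PNET, against 5.53% of all transcript clusters, and 3 were lower, against 7.2%, shares close to the background. Among named genes alone the shares were 7.06% and 9.26%. The member median was 0.14 and that of all named genes -0.01. All PNET came from AdCre delivered in vivo and 3 of 4 oligo-astrocytomas from grafts, so tumour type and derivation can hardly be told apart, and number 44, the glioma of the same origin as the PNET, is given in each case.

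Ddb2 had the largest difference among the targets that passed. It read 7.47, 8.06 and 7.82 in PNET, 6.31 in oligo-astrocytoma 44, 5.98, 6.18 and 6.14 in the grafts, 6.83 and 6.78 in AdCre spheres and 6.59 with AdGFP. Every PNET stood above every sphere, and every oligo-astrocytoma, 44 included, below. Ddb2 was higher in PNET by 1.63 ± 0.17, or 3.11-fold (adjusted p = 0.0004396). Dglucy was higher by 1.34 ± 0.18 (adjusted p = 0.001726) and Ccng1 by 0.95 ± 0.24 (adjusted p = 0.03118). Ccng1 lost its call under 6 of the 7 left-out replicates, with adjusted p from 0.05138 to 0.1217, and kept it without PNET 1. Without PNET 1 the count of higher targets was 5.

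Abhd4 was lower in PNET by a difference of -1.42 ± 0.21 (adjusted p = 0.002363) and Zmat3 by -1.10 ± 0.20 (adjusted p = 0.007164). Ptpn14 read 5.42, 5.40 and 5.51 in PNET, 6.19 in oligo-astrocytoma 44, 6.73, 5.92 and 6.41 in the grafts, 6.35 and 6.12 in AdCre spheres and 6.45 with AdGFP, so PNET alone stood apart. The Ptpn14 difference of -0.87 ± 0.20 (adjusted p = 0.02183) did not pass without PNET 1, 2 or 3 or graft 6 (adjusted p of 0.05184 to 0.07077). Btg2 read 8.06, 9.46 and 9.64 in PNET, 6.25 in oligo-astrocytoma 44 and 6.67, 8.37 and 7.52 in the grafts, and its difference of 1.85 ± 0.55 did not pass (adjusted p = 0.06024). Over neuronal markers PNET averaged 7.58 to 8.08 and oligo-astrocytomas 5.69 to 6.38, over astrocyte markers 5.00 to 6.06 and 7.48 to 8.12, and the part of these lineages in the differences was not tested.

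Whether targets stayed expressed in tumours was read from ranks within each array, since no detection call is given. In PNET 24 of the 33 targets lay above the array median on every array, where 50.2% of all named genes did, and in oligo-astrocytoma 20 did, where 49.1% of named genes did. The count was 26 in AdCre spheres (58.1% of named genes) and 30 in the AdGFP sphere (58.9%). The median of the targets on each array was 7.99 with AdGFP, 7.30 and 7.12 with AdCre, 6.62 to 6.75 in PNET and 6.42 to 6.65 in oligo-astrocytoma, so that the tumour types overlapped.

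Ccng1 stayed at the 90.4 to 98.5 percentile in all tumours. Mdm2 lay between 72.0 and 86.9 and Trp53inp1 between 67.1 and 92.3. In the upper quartile on every array were Ccng1, Btg2, Ddb2 and Ak1 in PNET and Mdm2, Ccng1, Trp53inp1 and Abhd4 in oligo-astrocytoma, where 22.2% and 21.5% of named genes were. On the single AdGFP array 17 targets and 29.9% of named genes were in it, a count that needs only 1 array where those of the tumours need 3 or 4. Not above the median on any tumour array were Bbc3, Fas and Cd80. Dglucy (33.2 to 42.2), Eda2r and Tnfrsf10b were below the median on every oligo-astrocytoma array, and Ptpn14 on every PNET array. Fas lay at 15.0 to 21.6 in tumours and at 31.6 even with AdGFP. A rank depends on the probes of each gene and does not compare the RNA amounts of different genes.

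Tumours of one type also varied among themselves. Pidd1 ranged from 6.38 to 9.32 in oligo-astrocytoma, with number 44 highest. Perp ranged from 4.22 to 7.38 there and from 5.40 to 7.53 in PNET, and Plk2, a polo-like kinase, from 6.22 to 8.89 and from 6.99 to 8.91. PNET 1 was the lowest PNET for 18 of the 33 targets, where it was the lowest for 35.7% of named genes, and PNET 3 the highest for 19, where it was the highest for 35.2%.

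**Figure D4:**
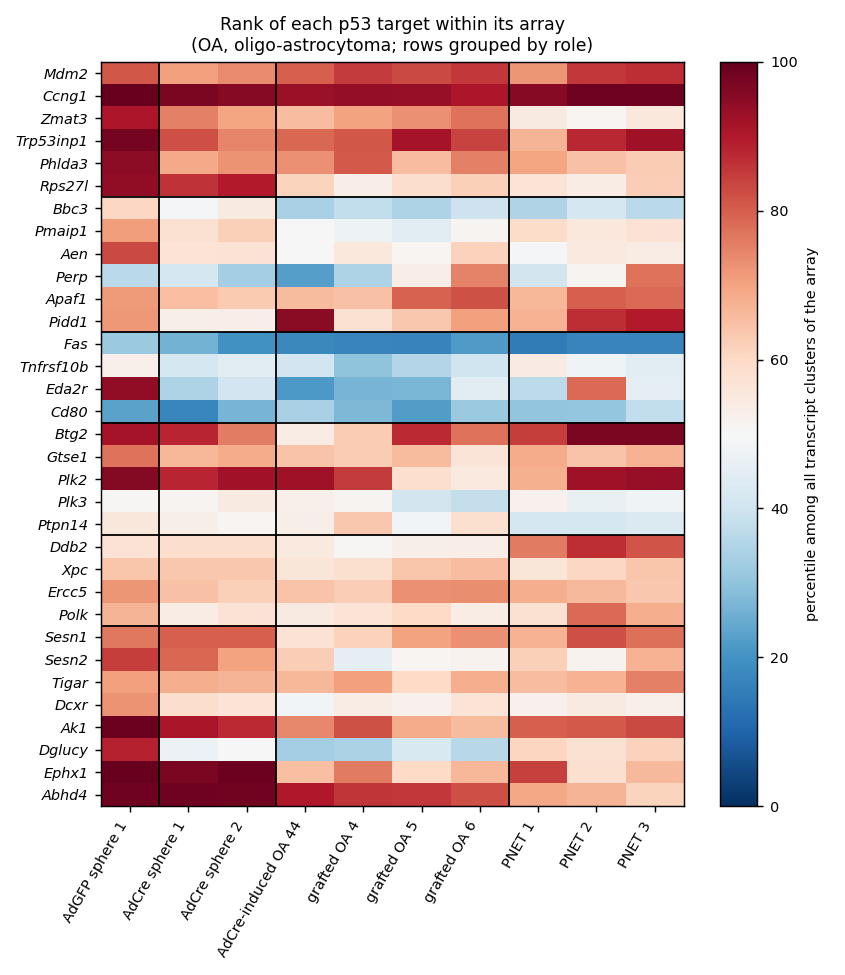
Each cell gives the percentile of a target among all 23238 transcript clusters of an array, with arrays as columns and the 33 targets as rows grouped by role. The AdGFP column is the darkest red, Ccng1 is red across all arrays, and Fas is blue across all arrays.

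Other genes of the p53 pathway stood in lists chosen by name. Of 27 upstream regulators and relatives 21 were measured, and none passed between AdCre and AdGFP spheres (1 was higher at an unadjusted p under 0.05, limma). Their median difference was 0.05. This 1 was Cdkn2a, whose Arf product blocks Mdm2, with a difference of 1.69 ± 0.36 (adjusted p = 0.3748). In oligo-astrocytoma against AdCre spheres 1 regulator rose and 6 fell, beside 3.19% and 28.3% of named genes, and in PNET 3 rose and 6 fell, beside 5.43% and 32.2%. Cdkn2a fell by 1.59 ± 0.26 in oligo-astrocytoma (adjusted p = 0.002218) and by 1.33 ± 0.27 in PNET (adjusted p = 0.004887). The checkpoint kinase gene Chek2 fell by 1.18 ± 0.24 and by 1.79 ± 0.25 (adjusted p = 0.00546 and 0.0008015). Mdm4, the partner of Mdm2 that masks p53, rose in PNET by 1.06 ± 0.31 (adjusted p = 0.02659). Hipk2, a kinase that phosphorylates p53, rose in oligo-astrocytoma by 0.93 ± 0.26 and fell in PNET by 0.89 ± 0.27 (adjusted p = 0.02202 and 0.03009). Between the tumour types 5 regulators were higher and 1 lower in PNET, beside 7.06% and 9.26% of named genes, the lower one being Hipk2, by a difference of -1.82 ± 0.23 (adjusted p = 0.001044). Against AdGFP 0 regulators rose and 1 fell in oligo-astrocytoma, beside 1.28% and 11.2% of named genes. In PNET 1 rose and 2 fell, beside 3.41% and 18.4%.

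Of 20 further p53 targets 16 were measured, and none passed between the spheres (1 was lower at an unadjusted p under 0.05, limma), at a median of -0.03. This 1 was Cdkn1a, the p21 inhibitor of cyclin-dependent kinases and the best known p53 target. It read 10.36 with AdGFP, 8.02 and 8.63 with AdCre, 7.18 in oligo-astrocytoma 44, 6.33, 5.56 and 5.19 in the grafts and 8.72, 9.25 and 9.17 in PNET. Every oligo-astrocytoma thus stood below the AdCre spheres. The PNET stood above them, PNET 1 by little (8.72 against 8.63), and the difference of PNET from AdCre spheres did not pass. The Cdkn1a differences were -2.03 ± 0.69 between spheres (adjusted p = 0.7632), -2.26 ± 0.49 in oligo-astrocytoma against AdCre spheres (adjusted p = 0.00781) and 2.98 ± 0.43 in PNET against oligo-astrocytoma (adjusted p = 0.002201). Against AdCre spheres 8 further targets fell and 0 rose in oligo-astrocytoma (none at an unadjusted p under 0.05), and 6 fell and 1 rose in PNET, the rise being Thbs1, the matrix protein thrombospondin, by 3.41 ± 0.77 (adjusted p = 0.007849). Between the tumour types 4 were higher and 3 lower in PNET. The shares of named genes in these comparisons are those given for the regulators. Against AdGFP 2 fell and 0 rose in oligo-astrocytoma, and 4 fell and 1 rose in PNET, again beside the shares given for the regulators.

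Genes of proliferation, which p53 and Rb hold down through p21 and E2F factors when these are active, formed 2 lists. Of 16 measured mitosis genes none passed between the spheres, and neither did any of 13 S phase genes (none of either at an unadjusted p under 0.05, limma). Their medians were 0.29 and 0.15. Against AdCre spheres 3 mitosis genes and 3 S phase genes fell in oligo-astrocytoma, where 28.3% of named genes did. In PNET 1 mitosis gene rose, 1 fell and 3 S phase genes rose, beside 5.43% of named genes that rose and 32.2% that fell. In PNET against oligo-astrocytoma 7 S phase genes and 1 mitosis gene were higher and none of either lower, beside 7.06% and 9.26% of named genes. The higher ones were led by Ccne2 (cyclin E2), with a difference of 2.11 ± 0.56 (adjusted p = 0.03874), and E2f1, with 1.85 ± 0.24 (adjusted p = 0.001416).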

How the data were processed

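Total RNA of 10 mouse samples was hybridised to 1-colour Affymetrix exon arrays. The deposited values are log2 expression, 1 per transcript cluster and sample, made by the authors with Partek and RMA on mm8 per the submitters' processing notes, with no versions named in the sources used here. They were used as deposited, with no filter. Linear models of limma 3.58.1 (R 4.3.3, functions lmFit and eBayes) were fitted to all 10 arrays in 4 groups and all 23238 transcript clusters, with two-sided tests, Benjamini-Hochberg adjustment over all of them and a threshold of 0.05, and were tested on simulated data. Groups of 1 were assumed to vary like the others. In the probe annotation 14939 transcript clusters name 1 gene, 989 name several and 7310 name none, and where a gene had more than 1 cluster (131 genes) the one of highest mean was taken. Members, gene lists and comparisons were chosen with earlier results of these data known. Values per sample are given for members that passed between spheres and for the 6 largest passing changes of each tumour comparison, with others added after values were seen (the 9 targets at least 2-fold lower, Mdm2 and Btg2). Promoter windows came from RefSeq (GRCm38.p6), a build that differs from that of the arrays. The number of arrays limits precision. Sample numbers were not used to pair samples in the main fit. Same-numbered PNET and AdCre spheres deviated from their group means with correlations of -0.04 and -0.06. These values cannot exclude a shared animal or batch, since the 2 AdCre spheres deviate as mirror images and the single AdGFP sphere has no deviation.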

Additional observations from a re-analysis of the deposited data

Results flagged for a closer look

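Of the 33 targets, 1 had an oligo-astrocytoma far from the other 3. Ccng1 read 8.55 in grafted oligo-astrocytoma 6, where the other oligo-astrocytomas read 9.03 to 9.08. Its gap to the nearest sample was 0.903 of the range of the group, above Dixon's critical value for 4 samples, and chance flags about 1 in 20 groups. Without this tumour the Ccng1 difference of PNET minus oligo-astrocytoma was 0.83 (adjusted p = 0.0688) in place of 0.95 (adjusted p = 0.03118).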

How the results depend on the processing

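Of 69 member changes that passed in the 6 comparisons, 41 passed under every alternative and 0 reversed. Other changes passed only under some alternatives, such as Btg2, higher in PNET than in oligo-astrocytoma under 4 of 17. Between spheres the count of lower targets was 0 after quantile normalization, with trended and robust or no variance moderation, with only the compared groups or 5 groups in the fit, and without either AdCre sphere. The median there ranged from -0.82 to -0.57 over left-out replicates. For oligo-astrocytoma against AdCre spheres, quantile normalization gave 8 falls and a median of -0.39, and left-out replicates gave 7 to 13 falls. For PNET against AdCre spheres, quantile normalization gave 5 falls and a median of -0.17, and centring on array medians 7 falls and -0.33. The rises were 1 with transcript clusters of mean 5 or more or without moderation, and left-out replicates gave 1 to 2 rises, 5 to 9 falls and medians of -0.63 to -0.43. For PNET against oligo-astrocytoma, the filter gave 5 higher targets, and left-out replicates 2 to 5 and medians of 0.087 to 0.29. Against AdGFP, oligo-astrocytoma medians were -1.24 after quantile normalization and -1.69 with the filter. Those of PNET were -0.90 and -1.29, or -1.20 to -1.04 over left-out replicates, with 0 rises when only the compared groups were fitted. The filter tests fewer genes; the other causes were not tested. With sample number as a random replicate block (consensus correlation 0.13) 15 targets fell in PNET against AdCre spheres in place of 12, with Pmaip1, Aen and Gtse1 gained, and the counts of the other comparisons did not change. The AdGFP sphere could not be left out, since it is the only one, and at 1 to 4 arrays a group small changes cannot be told from 0. The arrays have no detection call, so dim genes such as Fas and Cd80 may lie near background.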
